A study of Mus musculus with 6 samples.

Results

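The 39 genes described here encode surface proteins, cytokine receptor chains, integrin chains, kinases, adaptors and transcription factors of T lymphocytes. They were chosen by name from the 54532 genes of the deposited count table, without the CD3 chains, the T cell receptor chains and the cytotoxic granule genes. By role, 15 are surface proteins, 4 cytokine receptor chains, 2 integrin chains, 4 kinases, 11 adaptors or regulators and 3 transcription factors. Their RNA was measured in 6 Smart-seq2 libraries, a method that amplifies full-length cDNA from small amounts of RNA.

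All libraries came from the dissociated epidermis of the back skin of C57BL/6 mice of both sexes, aged 4 weeks, with no genetic alteration or drug treatment named. The NCAM-enriched group has 3 libraries from cells labelled as Merkel cells, which were bound to magnetic beads through an antibody to polysialylated NCAM and then sorted as NCAM-positive and DAPI-negative. For the 3 bulk skin libraries, DAPI-negative epidermal cells were sorted with no selection on NCAM, a mixture that can itself include Merkel cells. The paper's methods describe these cells as epidermal, while the sample titles read total skin. Each library was made from 500 sorted events. NCAM, the neural cell adhesion molecule, is a surface protein of Merkel cells and also of neural cells, so the sort selects a surface antigen and not a lineage. The comparison asked which transcripts differ between the Merkel cell preparation and unselected epidermal cells.

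A T cell receives its signal through the T cell receptor and the attached CD3 chains. The kinases Lck and Fyn phosphorylate these chains, Zap70 docks on them and phosphorylates the scaffold Lat, and Lcp2 (SLP-76) joins Lat to pass the signal on. Costimulatory proteins such as Cd28 and Icos strengthen the response, and receptors for interleukin 2, 7 and 15 that share the chain Il2rg keep the cells alive. Mouse epidermis normally holds dendritic epidermal T cells, gamma delta T cells that mostly lack Cd4 and Cd8, carry Thy1, Cd69 and the integrin Itgae (CD103), and depend on interleukin 15 through Il2rb and Il2rg.

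The library totals ran from 1343190 to 3798136 counts after NCAM enrichment and from 3333753 to 4481830 in bulk skin. Values are CPM, read counts scaled to a common library size, and 1 count was worth 0.284 to 0.773 CPM in the NCAM-enriched libraries and 0.216 to 0.310 CPM in bulk skin. The labels do not name T cells, and T cell transcripts were looked for with 8 defining T cell genes. Their summed level was 2263, 2419 and 2683 CPM in bulk skin libraries 1 to 3 against 125, 119 and 95.1 CPM in NCAM-enriched libraries 1 to 3. Cd3d had 2770 counts over the 3 bulk skin libraries and 0 over the NCAM-enriched libraries, Cd3e had 2189 and 4, and the gamma delta receptor gene Trdc had 3869 and 1. Of the 8 genes, 6 were lower in the NCAM-enriched group by edgeR's quasi-likelihood test, where 1.55% of all 13157 genes tested were called lower. The other 2 were the receptor beta constant genes Trbc1, with 1648 counts in bulk skin and 245 after NCAM enrichment, and Trbc2, with 1838 and 427, neither of which passed the test. Leaving out bulk skin library 1, 2 or 3 left 3 calls in each fit, namely Cd3d, Cd3e and Trdc.

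As a group, the T lymphocyte genes were lower in the NCAM-enriched libraries. Their summed level was 5599, 5448 and 5482 CPM in bulk skin and 673, 831 and 491 CPM in the NCAM-enriched libraries, where Fyn and Rora made up 88.9%, 70.5% and 64.6% of the members' counts. Of the 39 genes, 32 passed the filter on low counts and 16 of these fell (edgeR quasi-likelihood test, Benjamini-Hochberg adjusted p from 0.000709 to 0.0457), where 1.55% of all 13157 genes tested were called lower. No tested member rose, against 1.04% of all genes, and no member above bulk skin had an unadjusted p under 0.05, nor did DESeq2 or limma-voom call one higher. In 29 of the 32, every NCAM-enriched library lay below every bulk skin library, which held for 19.3% of all genes tested. The median log2 fold change (NCAM-enriched over bulk skin) of the 32 was -5.71, or -5.27 with the 11 genes of 3 or fewer NCAM-enriched counts set to their bound or count ratio, against -0.07 over all genes. The filter needs 2.94 CPM in 3 libraries, and 28 of the 32 passed it through bulk skin alone, so that these counts describe the genes that bulk skin contained. In these mixed samples, fewer T cells and less RNA per T cell cannot be told apart.

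The number of calls depended on single libraries. Without bulk skin library 1, 2 or 3, only 2, 4 and 2 members were called lower. In the same edgeR fits 0.0858%, 0.141% and 0.109% of all genes tested were called lower, against 1.55% in the main fit. Of the members, 28, 27 and 28 were lower in these fits at an unadjusted p under 0.05. The share of all genes at that p was not computed, so these counts have no background. Without NCAM-enriched library 1, 2 or 3, 13, 24 and 23 members were called lower, and 1.57%, 4.12% and 4.90% of all genes tested. Il2rb and Trat1 were called in all 17 alternative analyses, 6 of which each left out 1 library. Without any single bulk skin library, the calls among the surface proteins, cytokine receptor chains, integrin chains, kinases, adaptors and transcription factors numbered at most 1, 1, 0, 0, 2 and 0, and those named below are from the fit to all 6 libraries.

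**Figure D1:**
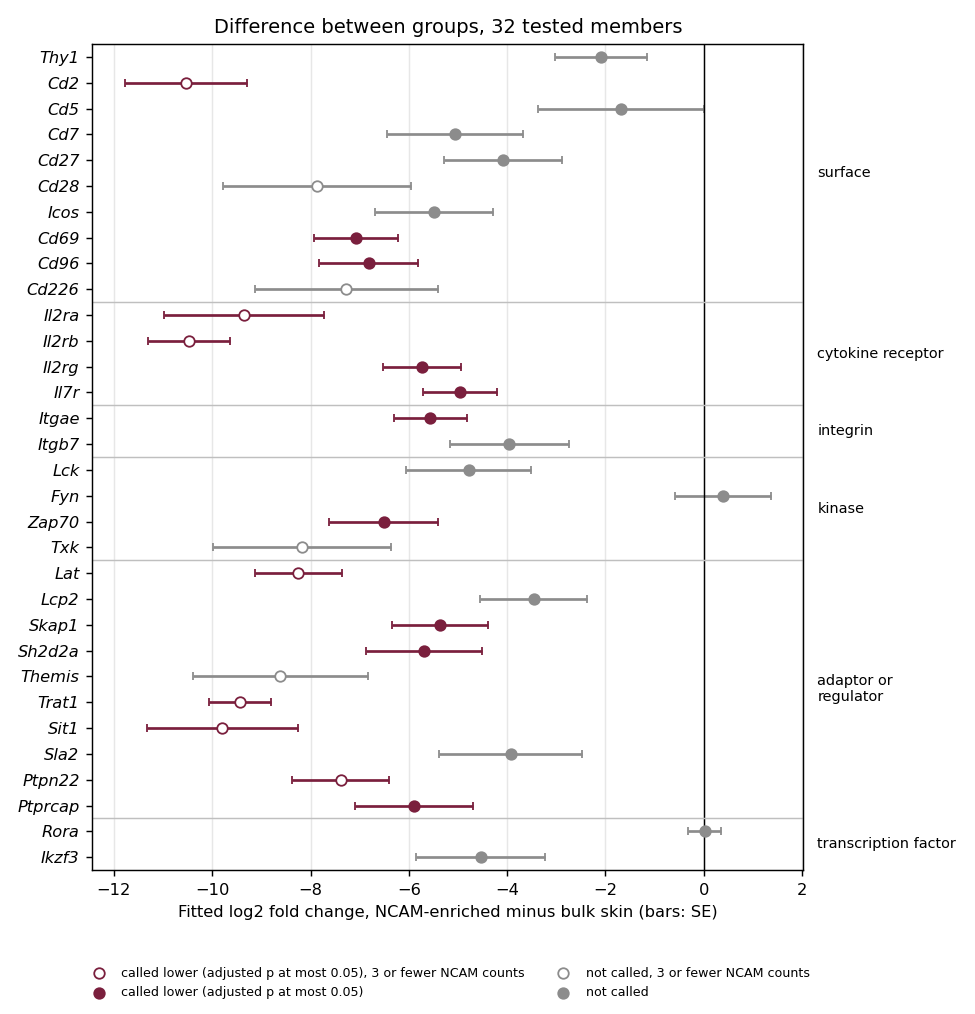
Fitted log2 fold change (NCAM-enriched over bulk skin, horizontal axis) of the 32 tested members, grouped by role, with bars of 1 SE. Dark red points were called lower at an adjusted p of 0.05 and grey points were not called. Hollow points of either colour rest on 3 or fewer NCAM-enriched counts, and their fitted values depend on the fit's prior count. Fyn (0.39) and Rora (0.02) lie at the zero line and all other members to the left of it.

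In bulk skin the levels per kilobase of exon spanned a wide range. Cd7 was the most abundant at 698 CPM per kb, followed by Ptprcap at 323 and Il2rg at 227, and then by Thy1 at 99.5, Cd69 at 78.2, Il2rb at 66.2, Cd96 at 65.7, Icos at 56.4, Trat1 at 49.9 and Itgae at 49.1 CPM per kb. In the middle stood the kinase Lck at 46.4, the scaffold Lat at 40.7, Rora at 27.2, Fyn at 24.6 and Zap70 at 22.7 CPM per kb. The neighbours Il2rb and Cd96 differed by less than their spread over the bulk skin libraries, as did Trat1 and Itgae, whereas Cd7 and Ptprcap, and Il2rg and Thy1, differed by more. The tested members with the lowest levels were Cd226 at 1.30 and Txk at 1.09 CPM per kb. Over the bulk skin libraries, the 32 tested members had a median coefficient of variation of 24.0% (from 2.53% for Itgae to 96.0% for Cd5), against 32.0% over all genes tested. Of the 32, 28 passed the filter through bulk skin alone, whereas other genes could also pass it through the NCAM-enriched libraries. These medians therefore do not come from like sets of genes. Exons of other genes overlap all of Ptprcap (Coro1b and Rps6kb2), 30.5% of Il2rg (Gm20489), 23.6% of Sla2 (Rab5if) and 10.8% of Cd7 (Gm11775). Coro1b and Gm20489 lie on the same strand as Ptprcap and Il2rg. The other overlaps are on opposite strands, which Smart-seq2 does not mark. The shared reads therefore cannot be told apart, which leaves the levels of Ptprcap, Il2rg, Sla2 and Cd7 uncertain.

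**Figure D2:**
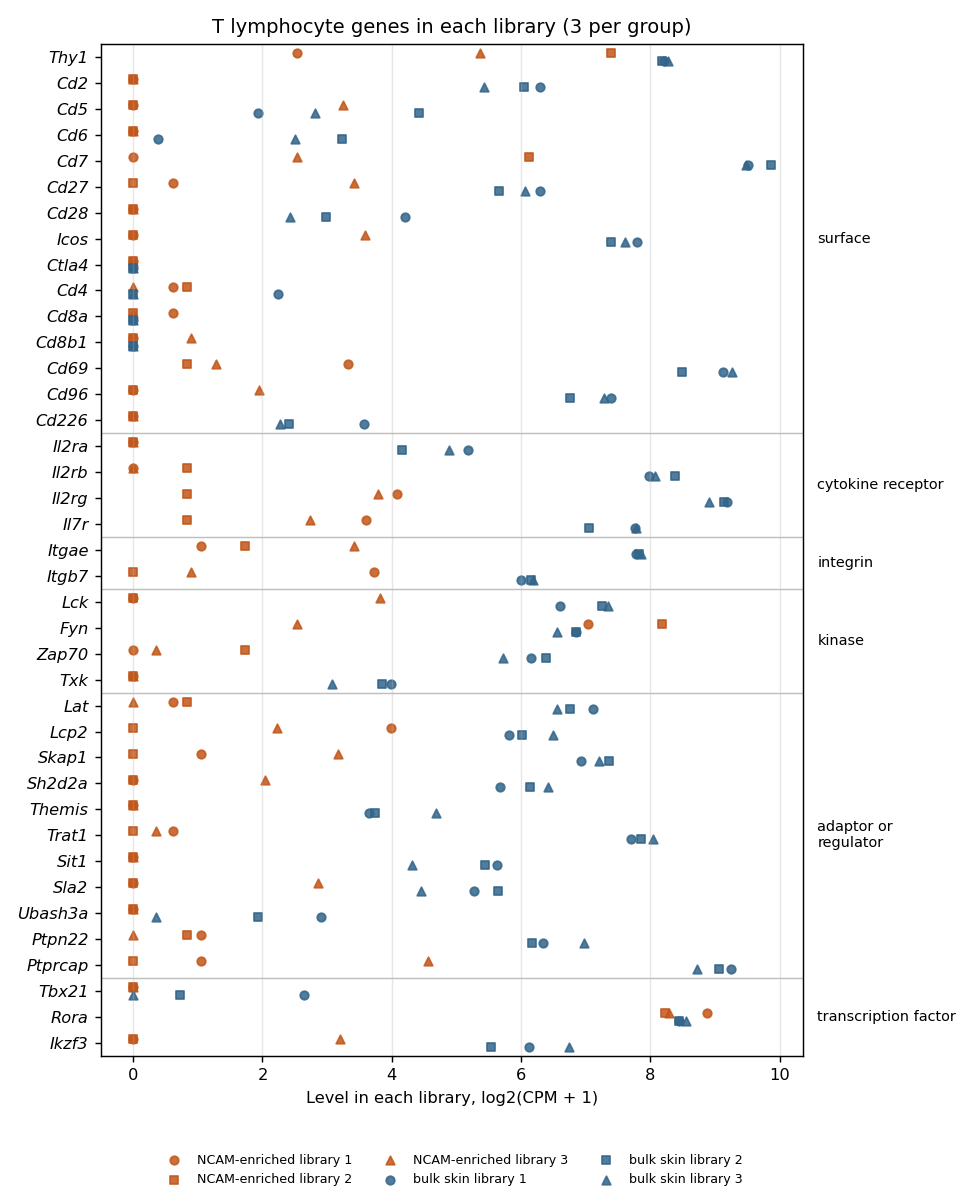
Level of the members (log2(CPM + 1)) in each of the 6 libraries, grouped by role. The bulk skin points lie close together for most genes of high level and further apart for low ones such as Cd5, Cd6, Cd28 and Ubash3a, while the NCAM-enriched points lie mostly below them or at no count, except for Fyn, Rora and Cd5, which overlap, and for Cd4, Cd8a, Cd8b1, Ctla4 and Tbx21, which are at or near no count in both groups.

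Of the 15 surface proteins, 10 were tested and 3 fell, Cd2, Cd69 and Cd96. Cd69, an early activation protein that retains T cells in tissue (chromosome 6, 129267325 to 129275436, minus strand, GRCm38), had 558, 357 and 611 CPM in bulk skin and 9.03, 0.773 and 1.42 CPM in the NCAM-enriched libraries. All 3 NCAM-enriched values were far below the lowest bulk skin value, and the log2 fold change was -7.08 ± 0.86 (SE; edgeR adjusted p = 0.00884). Its pooled counts were 144-fold lower in the NCAM-enriched group, 397-fold lower without NCAM-enriched library 1, which held most of them, and 87.2-fold lower without library 3. Cd96, a receptor of T and NK cells for nectin family proteins, had 167, 108 and 155 CPM in bulk skin, 0 in NCAM-enriched libraries 1 and 2 and 2.84 CPM in library 3 (log2 fold change -6.82 ± 1.01, adjusted p = 0.0168). Its pooled fold was 93.4, or at least 148 without that library. Cd2, an adhesion protein that binds Cd48, had 77.0, 65.1 and 41.9 CPM in bulk skin and no count in any NCAM-enriched library (adjusted p = 0.0162). That is at least 136-fold lower against a floor of 3 counts over the NCAM-enriched group, and at least 64.7-fold lower without the deepest of them, library 3.

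Among surface proteins that were not called, the NCAM-enriched libraries differed widely. Thy1, a glycoprotein of T cells that fibroblasts and neurons also carry (chromosome 9, 44043384 to 44048579, plus strand), had 296, 288 and 310 CPM in bulk skin and 4.78, 166 and 40.0 CPM in the NCAM-enriched libraries. The groups did not overlap, but library 2 reached 55.8% of the bulk skin mean and library 1 only 1.61% (log2 fold change -2.10 ± 0.93, adjusted p = 0.268). Cd7, an immunoglobulin superfamily protein of T and NK cells, had 724, 935 and 714 CPM in bulk skin and 0, 68.8 and 4.82 CPM in the NCAM-enriched libraries (-5.06 ± 1.39, adjusted p = 0.0841). Here too library 2 was the highest of the 3. The fibroblast marker list, with 6 genes such as Col1a1 and Dcn, summed to 363, 33003 and 41.7 CPM in NCAM-enriched libraries 1 to 3 and to 10356 to 18198 CPM in bulk skin, so that the library with the most Thy1 also had the most of these transcripts. Its part in the Thy1 and Cd7 values was not tested. Without library 2, Thy1 and Cd7 were called lower along with Cd27 and Icos, and the pooled fold of Thy1 went from 5.45 to 10.7 and that of Cd7 from 50.9 to 256. Without library 3 the pooled fold of Cd7 was 28.8.

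The costimulatory receptors Icos and Cd27 were seen in the NCAM-enriched group almost only in library 3. Icos, which is induced on activated T cells, had 221, 166 and 194 CPM in bulk skin and 0, 0 and 11.1 CPM in the NCAM-enriched libraries (log2 fold change -5.49 ± 1.20, adjusted p = 0.0513). Cd27, a TNF receptor family member, had 77.0, 49.5 and 65.8 CPM in bulk skin and 0.531, 0 and 9.65 CPM in the NCAM-enriched libraries (-4.09 ± 1.21, adjusted p = 0.101). Neither gene overlapped with bulk skin, and both were called lower when NCAM-enriched library 3 was left out. Their pooled folds were then at least 201 for Icos and 198 for Cd27, in place of 32.7 and 11.9. That of Cd27 rested on 1 NCAM-enriched count. Cd28, the main costimulatory receptor of naive T cells, and Cd226, an adhesion receptor, had 4.39 to 17.4 and 3.84 to 10.9 CPM in bulk skin and no count in the NCAM-enriched group. These are at least 20.2-fold and 13.4-fold lower (adjusted p = 0.0797 and 0.0878), or 9.58-fold and 6.36-fold without NCAM-enriched library 3, and without bulk skin library 1 the bound of Cd28 was 13.0-fold. Cd5, a negative regulator of receptor signalling, overlapped between the groups, with 94 of its 125 bulk skin counts in library 2 and 30 counts in NCAM-enriched library 3 alone.

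The coreceptor and checkpoint genes were near or at no count in both groups. Cd8a and Cd8b1 had 0 counts in bulk skin and 1 and 3 counts after enrichment, and Ctla4 had 0 counts in all 6 libraries. A total of 0 counts over bulk skin allows a level of up to 0.261 CPM, and over the NCAM-enriched group up to 0.448 CPM. Cd4 had 12 counts, all in bulk skin library 1, and 1 count each in NCAM-enriched libraries 1 and 2. Cd6, a relative of Cd5 that binds Alcam, had 1, 39 and 17 counts in bulk skin and none in the NCAM-enriched group. None of these 5 genes passed the filter. In edgeR on all genes with at least 1 count, the 4 of them with a count were tested and not called (adjusted p from 0.224 for Cd6 to 0.728 for Cd4).

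All 4 cytokine receptor chains fell. Il2rb, the signalling chain shared by the interleukin 2 and 15 receptors (chromosome 15, 78479256 to 78495271, minus strand), had 252, 332 and 266 CPM in bulk skin and 0, 0.773 and 0 CPM in the NCAM-enriched libraries, where the nonzero value is 1 count. The ratio of the pooled counts was 1936 (95% counting interval 347 to 76488, adjusted p = 0.00160), at least 521 without NCAM-enriched library 2, which held that count, and 918 without library 3. Il2ra, the chain that raises affinity for interleukin 2, had 35.4, 16.9 and 28.5 CPM in bulk skin and no count in the NCAM-enriched group. It was at least 57.5-fold lower (adjusted p = 0.0393), and at least 27.3-fold lower without NCAM-enriched library 3.

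The other 2 chains kept a low level in the NCAM-enriched group. Il2rg, the common gamma chain, had 581, 565 and 478 CPM in bulk skin and 15.9, 0.773 and 12.8 CPM in the NCAM-enriched libraries. Il7r, the interleukin 7 receptor alpha chain, had 216, 132 and 217 CPM in bulk skin and 11.2, 0.773 and 5.68 CPM in the NCAM-enriched libraries. In both genes NCAM-enriched library 2 was the lowest, with 1 count, and no library overlapped with bulk skin. The log2 fold changes were -5.73 ± 0.79 (adjusted p = 0.0140) and -4.95 ± 0.75 (adjusted p = 0.0175). Without NCAM-enriched library 1, Il2ra was no longer called while the other 3 chains were.

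The integrin chains Itgae and Itgb7 form the receptor that holds T cells to E-cadherin of epithelial cells. Itgae (chromosome 11, 73090583 to 73147446, plus strand) had 219, 225 and 231 CPM in bulk skin, the tightest values of all tested members, and 1.06, 2.32 and 9.65 CPM in the NCAM-enriched libraries. It fell, with a log2 difference of -5.56 ± 0.75 (adjusted p = 0.0123), and its pooled fold was 38.7, or 143 without NCAM-enriched library 3. Its partner Itgb7 had 63.0, 70.3 and 71.8 CPM in bulk skin and 12.2, 0 and 0.851 CPM in the NCAM-enriched libraries, all below bulk skin. Library 1 held 23 of its 26 NCAM-enriched counts, and edgeR did not call Itgb7 (-3.96 ± 1.21, adjusted p = 0.112). DESeq2 and limma-voom on all 6 libraries did call it lower (adjusted p = 0.00601 and 0.0133). Without NCAM-enriched library 1 edgeR called it too, and its pooled fold went from 17.7 to 110. Without NCAM-enriched library 3 that fold was 9.49. Itgb7 also occurs on mast cells, and the mast cell marker list summed to 1837, 3.09 and 0 CPM in NCAM-enriched libraries 1 to 3 and to 384, 1563 and 1454 CPM in bulk skin. The part of these transcripts in the Itgb7 value was not tested.

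Of the 4 kinases, only Zap70 was called. Zap70, which docks on phosphorylated CD3 chains (chromosome 1, 36761798 to 36782818, plus strand), had 69.9, 82.1 and 51.5 CPM in bulk skin and 0, 2.32 and 0.284 CPM in the NCAM-enriched libraries. The groups were well apart, with a log2 fold change of -6.52 ± 1.11 (adjusted p = 0.0238). The pooled fold was 116, or 73.0 without NCAM-enriched library 3 and 373, from 1 remaining count, without library 2. Lck, the kinase that starts the signal, had 96.6, 151 and 161 CPM in bulk skin and 0, 0 and 13.1 CPM in the NCAM-enriched libraries. All of its 46 NCAM-enriched counts were in library 3, and it was not called (-4.78 ± 1.27, adjusted p = 0.0783), though it was without NCAM-enriched library 2 or without library 3, and its pooled fold of 20.2 became at least 147 without library 3. Txk, a Tec family kinase, had 7.40 to 14.9 CPM in bulk skin and no NCAM-enriched count, at least 26.6-fold lower, or 12.6-fold without NCAM-enriched library 3 (adjusted p = 0.0670). It too was called without NCAM-enriched library 2 or without library 3.

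Fyn, the other Src family kinase of the pathway, which many cell types including neural cells and fibroblasts use (chromosome 10, 39368855 to 39565381, plus strand), overlapped between the groups. It had 115, 115 and 92.7 CPM in bulk skin and 130, 289 and 4.82 CPM in the NCAM-enriched libraries. NCAM-enriched libraries 1 and 2 were above every bulk skin library and library 3 was far below them. The log2 fold change was 0.39 ± 0.98 (adjusted p = 0.882), and it turned to -0.70 without NCAM-enriched library 2, to -0.58 in the fit with a replicate block and to -1.82 in limma-voom. Library 2, with the highest Fyn value, was again the one with 33003 CPM of fibroblast markers, and library 3, with the lowest, had 467 CPM of 10 Merkel cell markers against 1667 and 1698 CPM in libraries 1 and 2. The part of either in the Fyn values was not tested.

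**Figure D3:**
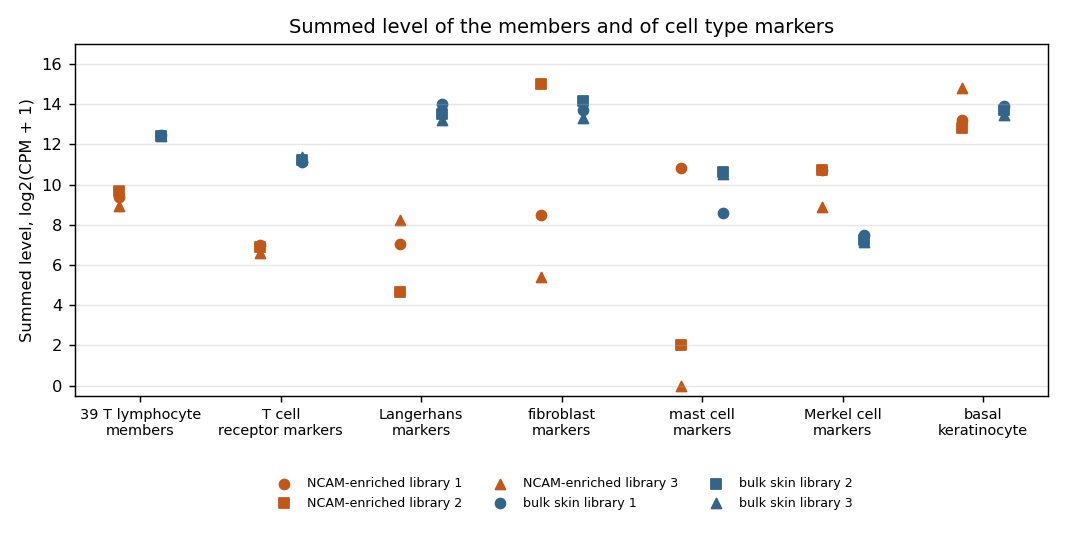
Summed level (log2(CPM + 1)) of the 39 members and of marker lists of T cells and other cell types of skin in each library. T cell and Langerhans cell markers were lower in every NCAM-enriched library than in every bulk skin library, while the NCAM-enriched libraries lay on both sides of bulk skin for fibroblast and mast cell markers.

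Of the 11 adaptors and regulators, 10 were tested and 7 fell. Trat1, an adaptor that stabilises the receptor complex at the surface (chromosome 16, 48730774 to 48772021, minus strand), had 207, 231 and 261 CPM in bulk skin and 0.531, 0 and 0.284 CPM in the NCAM-enriched libraries, 1 count each in libraries 1 and 3. It had the smallest adjusted p of the tested members (0.000709), with a pooled count ratio of 783 (95% counting interval 217 to 6470). Lat, the scaffold phosphorylated by Zap70 (chromosome 7, 126363824 to 126369570, minus strand), had 138, 107 and 93.2 CPM in bulk skin and 0.531, 0.773 and 0 CPM in the NCAM-enriched libraries. Its 2 NCAM-enriched counts gave a ratio of 372 (103 to 3079, adjusted p = 0.00494), which was 177 without NCAM-enriched library 3 and 601 without library 2.

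Ptpn22 and Sit1, inhibitory regulators that were called, were close to absent from the NCAM-enriched group. Ptpn22, a phosphatase that restrains Lck and Zap70, had 80.1, 70.7 and 125 CPM in bulk skin and 1.06, 0.773 and 0 CPM in the NCAM-enriched libraries. From 3 NCAM-enriched counts its ratio was 202 (69.0 to 982, adjusted p = 0.0119), or 95.8 without NCAM-enriched library 3 and 436 without library 1. Sit1, a transmembrane adaptor that dampens receptor signalling, had 48.4, 42.6 and 18.9 CPM in bulk skin and no count in the NCAM-enriched group. It was at least 82.0-fold lower (adjusted p = 0.0304), or 38.9-fold without NCAM-enriched library 3.

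In the other 3 called adaptors, the NCAM-enriched counts came mostly from library 3. Skap1, which links the receptor to integrin adhesion, had 121, 164 and 147 CPM in bulk skin and 1.06, 0 and 7.95 CPM in the NCAM-enriched libraries (log2 fold change -5.37 ± 0.98, adjusted p = 0.0304). Sh2d2a, an adaptor that binds Lck, had 50.0, 69.6 and 84.4 CPM in bulk skin and 0, 0 and 3.12 CPM in the NCAM-enriched libraries (-5.69 ± 1.19, adjusted p = 0.0457). Ptprcap, a protein associated with the phosphatase CD45, had 608, 532 and 422 CPM in bulk skin and 1.06, 0 and 22.7 CPM in the NCAM-enriched libraries (-5.90 ± 1.20, adjusted p = 0.0414). No NCAM-enriched value reached the bulk skin range. Without NCAM-enriched library 3 the pooled folds of Skap1, Sh2d2a and Ptprcap went from 32.7, 41.9 and 42.4 to 233, at least 72.9 and 823. Those of Skap1 and Ptprcap then rested on 2 NCAM-enriched counts each. Without NCAM-enriched library 1 none of the 3 was called.

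The adaptors Lcp2, Sla2 and Themis were tested and not called. Lcp2, the partner of Lat, which mast cells and other blood cells also express, had 55.3, 63.6 and 88.8 CPM in bulk skin and 14.9, 0 and 3.69 CPM in the NCAM-enriched libraries (-3.46 ± 1.09, adjusted p = 0.123). Sla2, which lowers receptor levels, had 37.6, 49.1 and 20.8 CPM in bulk skin and 0, 0 and 6.24 CPM in the NCAM-enriched libraries (-3.93 ± 1.45, adjusted p = 0.182). Both were below bulk skin in every library, Lcp2 with its highest NCAM-enriched value in library 1 and Sla2 with its only one in library 3. Lcp2 was called without NCAM-enriched library 2 (pooled fold 9.13 in place of 11.3) and Sla2 without library 3 (at least 39.1 in place of 11.2). Without NCAM-enriched library 1, Lcp2 had a pooled fold of 25.7 and was not called. Themis, which sets signal strength in developing T cells, had 11.5 to 24.7 CPM in bulk skin and no NCAM-enriched count, at least 35.8-fold lower, or 16.9-fold without NCAM-enriched library 3 (adjusted p = 0.0587). It was called without NCAM-enriched library 2 or library 3. Ubash3a, a suppressor of receptor signalling, had 21, 13 and 1 counts in bulk skin and none in the NCAM-enriched group and did not pass the filter.

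None of the 3 transcription factors was called. Rora, a nuclear receptor of innate and type 17 lymphocytes that skin and neural cells also express (chromosome 9, 68653786 to 69388246, plus strand), had 345, 346 and 374 CPM in bulk skin and 468, 297 and 313 CPM in the NCAM-enriched libraries. The groups overlapped, and the log2 fold change was 0.02 ± 0.34 (adjusted p = 0.986), with values from -0.23 to 0.12 when each library was left out in turn. Ikzf3 (Aiolos), a zinc finger factor of lymphocytes, had 68.3, 45.2 and 106 CPM in bulk skin and 0, 0 and 8.23 CPM in the NCAM-enriched libraries (-4.54 ± 1.32, adjusted p = 0.0965). All 29 of its NCAM-enriched counts were in library 3, without which it was called and its pooled fold went from 16.4 to at least 75.0. Tbx21 (T-bet), the factor of type 1 lymphocytes, had 17, 3 and 0 counts in bulk skin and none in the NCAM-enriched group and did not pass the filter.

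The NCAM-enriched libraries also differed in which T lymphocyte transcripts remained. Over the 27 members with at least 20 CPM in bulk skin, the median level was 0.228%, 0% and 3.01% of the bulk skin mean in NCAM-enriched libraries 1 to 3. Library 2 had 21 of the 27 under 1% and library 1 had 18, while library 3 had 10 under 1% and 16 between 1% and 20%. The members over 20% were Fyn, Rora and Lcp2 in library 1, Fyn, Rora and Thy1 in library 2 and Rora in library 3. In library 3, 7 members absent from libraries 1 and 2 had more than 3 counts, namely Lck, Ikzf3, Cd96, Cd5, Icos, Sla2 and Sh2d2a. The same library held 44 of the 45 NCAM-enriched counts of Cd3g, and it had the most counts of the 3, 3798136 against 1995112 and 1343190. The part of sequencing depth in the number of members seen was not tested. Over all 39 members, 3 had more than 3 counts in every NCAM-enriched library, namely Thy1, Fyn and Rora, 5 in 2 of the libraries, 12 in 1 and 19 in none, whereas 32 had more than 3 counts in every bulk skin library.

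**Figure D4:**
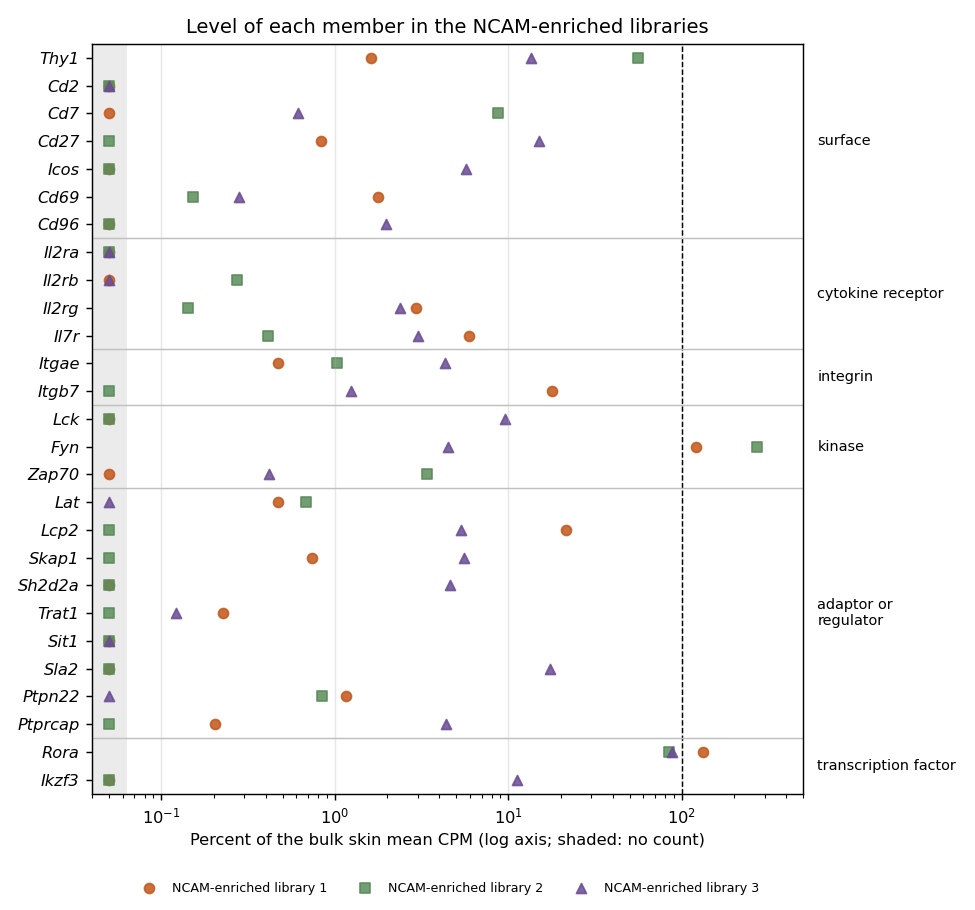
Level of each of the 27 members with at least 20 CPM in bulk skin, in each NCAM-enriched library, as a percent of the bulk skin mean (log axis). The dashed line marks the bulk skin mean and the shaded strip holds libraries with no count. Most points of library 2 lie in the strip, those of library 3 mostly between 1% and 20%, and the points near or past the dashed line belong to Fyn and Rora.

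Transcripts of other skin cells moved with the groups too, where 1.55% of all genes tested were called lower and 1.04% higher. The 6 Langerhans cell markers were all lower in the NCAM-enriched group, with summed levels of 24.0 to 301 CPM against 9464 to 16487 CPM in bulk skin. Of 10 Merkel cell markers 5 were higher, with sums of 467 to 1698 CPM against 142 to 181 CPM. Of 6 suprabasal keratinocyte markers 4 were higher, with sums of 12803 to 32682 CPM after enrichment against 1254 to 1443 CPM. The 6 basal keratinocyte markers were not called, with sums of 7117 to 28954 CPM after enrichment and 11272 to 15674 CPM in bulk skin. The 5 B cell markers did not pass the filter, and summed to 1.55 to 2.66 CPM and 0.216 to 4.94 CPM.

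Genes of the same pathway outside the 39 included 7 that fell among the 53 tested. Of all genes tested, 1.55% were called lower and 1.04% higher. Of 37 genes of T cell receptor and cytokine signalling, all tested, 5 fell and none rose, and of 18 transcription factors of the T lineage, 16 were tested, 2 fell and none rose. By edgeR 16 of the 53 tested genes were lower and 3 higher at an unadjusted p under 0.05, a share not computed over all genes. DESeq2 called 2 higher (Bcl11b and Gata3) and limma-voom 1 (Bcl11b), where they called 661 and 351 of all 13157 genes higher. The median log2 fold change of the 53 was -0.50. Tespa1, an adaptor of thymocyte receptor signalling, had 74.2, 64.6 and 79.2 CPM in bulk skin and 0, 0.773 and 0 CPM in the NCAM-enriched libraries, a ratio of 482 (86.3 to 19064, adjusted p = 0.0113). Its ratio was at least 130 without NCAM-enriched library 2, which held its 1 count, and 229 without library 3. Was, an actin regulator of blood cells, had 29.8, 40.2 and 17.5 CPM in bulk skin and no NCAM-enriched count. It was at least 67.2-fold lower (adjusted p = 0.0368), or 31.9-fold without NCAM-enriched library 3.

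Of the signalling genes outside the 39 that were not called, Jak1 and Ppp3ca, which many cell types use, had the highest mean CPM over all libraries. Jak1, the kinase bound to cytokine receptors, had 401, 366 and 427 CPM in bulk skin and 302, 469 and 299 CPM in the NCAM-enriched libraries (log2 fold change -0.16 ± 0.35, adjusted p = 0.864). Ppp3ca, the catalytic subunit of calcineurin, had 249, 300.3 and 306 CPM in bulk skin and 313, 617 and 238 CPM in the NCAM-enriched libraries (0.45 ± 0.42, adjusted p = 0.634). In both genes the groups overlapped.

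Among the transcription factors outside the 39, Ets1, which opens lymphocyte genes, fell from 131, 186 and 152 CPM in bulk skin to 19.1, 5.41 and 16.2 CPM in the NCAM-enriched libraries (-3.50 ± 0.55, adjusted p = 0.0190). Id2, an inhibitor of E proteins in innate-like lymphocytes, fell from 804, 567 and 1114 CPM to 189, 132 and 125 CPM (-2.48 ± 0.41, adjusted p = 0.0225). In the opposite direction stood Gata3, with 313, 417 and 313 CPM in bulk skin and 989, 484 and 827 CPM in the NCAM-enriched libraries (1.14 ± 0.40, adjusted p = 0.158), and Bcl11b, with 111, 211 and 191 CPM and 298, 535 and 530.1 CPM (1.41 ± 0.41, adjusted p = 0.0986). Both are T lineage factors that keratinocytes also express, and in both every NCAM-enriched library was above every bulk skin library, without passing the test. Without NCAM-enriched library 2, Gata3 was called higher. None of the genes of both lists that fell was called without any single bulk skin library. Without library 1, 2 and 3, 15, 14 and 15 of the tested genes were lower at an unadjusted p under 0.05, a share not computed over all genes.

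To describe the sequence next to the start of these genes, promoters from RefSeq (GRCm38.p6, 250 bases before to 50 bases after a transcript start) were searched on both strands for core motifs of 3 factor families that act in T cells. The table held 29 promoters of 23 of the 39 genes. The Runx core TGTGGT was in 10 of the 29 (34.5%) and in 16.8% of all 32851 promoters in the table. The Ets core GGAAGT was in 11 (37.9%, against 23.8% of all promoters), and the Tcf/Lef core CTTTGA in 8 (27.6%, against 16.0%). The 3 motifs do not contain each other. By gene, 10 of the 23 held the Runx core in at least 1 promoter. These were 7 of the 9 called genes with a promoter, Cd96, Il2rg, Il7r, Lat, Ptpn22, Trat1 and Zap70, and the uncalled Lck, Sla2 and Txk. Ptpn22 and Zap70 had several promoters and held it in 1. The shares above are per promoter, and none per gene was computed over all genes, so the count of called genes has no background. Of the matches in called genes, 5 are printed below with 12 bases on either side, 5′ to 3′ on the gene's strand. The motif or its reverse complement is in capitals. These genes represent the cytokine receptor, kinase and adaptor roles.
Il7r, chr15:9529856-9529885, minus strand: tagttccctgtcTGTGGTttagcaggcaca
Il2rg, chrX:101268465-101268494, minus strand: ggaatgatggtgTGTGGTgggggtgggtgt
Zap70, chr1:36764428-36764457, plus strand: tgagcaggttccTGTGGTgggagggaggac
Lat, chr7:126369556-126369585, minus strand: tttcctgccctcACCACAgcttcctgtcgc
Trat1, chr16:48772121-48772150, minus strand: gaagcctctatcACCACAtttcctgtttat
The match of Il7r begins at base 4 of a transcript, with its start counted as base 1. Those of Lat, Zap70, Trat1 and Il2rg begin 5, 75, 76 and 227 bases before a transcript start. Of the tested genes whose groups overlapped, Rora had no match to any of the 3 motifs in its promoters in the table. Fyn had 1 to the Tcf/Lef core and Cd5 had 1 to the Ets core. A match describes the letters and does not show that a factor binds there.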

How the data were processed

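Smart-seq2 libraries of 3 NCAM-enriched and 3 bulk skin samples were analysed. The authors deposited raw counts of reads per gene, without normalization. Before counting with featureCounts they clipped reads (bbduk), filtered out abundant sequences (bbmap) and aligned the rest to GRCm38 (STAR). Neither the gene annotation used for counting nor its strand setting is stated in the sources used here. Positions, exon lengths and overlaps came from GENCODE M21, which held 54495 of 54532 gene IDs.

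The 39 members and all lists were chosen with earlier results of these data known. All 39 are accounted for. Values in every library are given for called members and for members with a bulk skin mean of at least 20 CPM, and from the pathway lists for the 3 called genes with the smallest p and the 2 most abundant uncalled genes of each. Some genes that this rule names are not reported here.

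The test was edgeR 4.0.16 in R 4.3.3 (filterByExpr, TMM, quasi-likelihood F-test, non-robust), between the groups given by the labels, with Benjamini-Hochberg adjustment over 13157 genes and calls at an adjusted p of at most 0.05. SE was derived from the test, as the absolute log2 fold change over the root of F. CPM are scaled by the TMM-adjusted library size. Genes with 0 NCAM-enriched counts were given a bound from 3 counts over the group, and genes with 1 to 3 counts a ratio with its 95% exact counting interval. Folds after leaving out a library have no interval, also where only 1 to 3 counts remain. No molecular identifiers were used, so reads can be PCR copies and intervals and floors cover counting error only. The sources do not say that replicates came from separate animals, so p-values measure only the spread between these libraries. The script was tested on simulated data. Alternatives were DESeq2 1.42.0, limma-voom (limma 3.58.1), other scaling, filters and dispersion, a replicate block, removal of mitochondrial genes and leaving out each library, and DESeq2 without the count filter, an alternative added after seeing the data. Figures were drawn with matplotlib 3.10.9.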

Additional observations from a re-analysis of the deposited data

How the results depend on the processing

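The count of members called lower, 16 in the main test, was 27 with DESeq2 and 29 with limma-voom. It was 27 in edgeR on all genes with at least 1 count, 28 with DESeq2 on all such genes, and 2 to 24 when each library was left out. Of all genes, these alternatives called 7.05%, 6.45%, 2.66%, 3.92% and, without single libraries, 0.0858% to 4.90% lower. With other scalings, a filter at 2 CPM, robust dispersion or without mitochondrial genes, 16 or 17 members were called lower. No member was called higher under any alternative. The median log2 fold change of the tested members, -5.71, ran from -7.83 to -5.72 over the fits that left out a library, with -7.83 without NCAM-enriched library 3. For the other pathway genes, the 7 lower calls became 15 with DESeq2, 15 with limma-voom, 15 with all genes of at least 1 count, 14 with DESeq2 on all genes and 0 to 17 without single libraries. Higher calls, 0 in the main test, were 2 with DESeq2, 1 with limma-voom, 1 with DESeq2 on all genes and 0 to 1 without single libraries. The cause was not tested.

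Fyn, at 0.39, turned to -1.82 in limma-voom, -0.58 with the replicate block and -0.70 without NCAM-enriched library 2, and ran up to 0.89 without library 3. Rora, at 0.02, became -0.011 in limma-voom, -0.079 with upper quartile factors, -0.062 with library totals, -0.086 with all genes of at least 1 count, -0.014 with the replicate block, and -0.23 to 0.12 without single libraries. The median of all genes moved from -0.07 to -0.37 in limma-voom, -0.36 with the block and 0.17 with DESeq2 on all genes, which gave 4 members no adjusted p.

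With the replicate number as a block, 12 members were called lower (Cd2, Il2ra, Sh2d2a and Sit1 were lost) and 3 other pathway genes. Deviations of same-numbered libraries correlated at 0.0226, 0.000250 and -0.00436, so the numbers were not treated as pairs. In edgeR on all genes with at least 1 count, 31 members were lower at an unadjusted p under 0.05, Cd6 and Ubash3a among them, though neither was called. The share of all genes at that p was not computed.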
